A study of Homo sapiens with 28 samples.

Results

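The data are the 720 genomic regions that carried H3K27ac in SW872 cells with constitutively active TAZ or YAP, by the names of the peak lists, and in none of the empty vector, CAMTA1 and TFE3 lists. SW872 is an established human liposarcoma cell line, and H3K27ac is the acetylated histone mark of active promoters and enhancers. The members were chosen by the presence of called peaks: all peaks of the 14 lists that overlapped or touched were merged, and a region was kept with a peak in at least 3 of the 4 lists named TAZ4SA or YAP5SA and in none of the 6 lists named for the empty vector, CAMTA1 or TFE3. This left 720 of 138757 merged regions, which is 0.519% of them. Regions found in both YAP5SA-named lists and no other list were to be left out, and none of these had 3 of the 4 lists, so that step removed no region. Presence in the 4 lists named TAZ-CAMTA1 or YAP-TFE3 was not used to choose members and was read afterwards.

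The cells were stably transduced with an empty vector or with 1 of 6 constructs, and each of the 7 labelled groups had 2 libraries. In TAZ4SA and YAP5SA serines are replaced by alanine, so that the Hippo kinases no longer hold the protein back. The fusions TAZ-CAMTA1 and YAP-TFE3 drive epithelioid hemangioendothelioma, a vascular sarcoma, and full-length CAMTA1 and TFE3 stand for their C-terminal partners. The series' design calls the libraries biological duplicates. Per the labels all cells were grown to near confluence before collection, except the CAMTA1 cells, which were collected below confluence. The study's methods for ChIP name no such exception and describe near confluence for all 7 groups. If the labels hold, growth state and construct cannot be told apart for CAMTA1, which by the names is 1 of the left-out constructs and by the labels is the pair named TAZ-CAMTA1. The labels give H3K27ac as the antibody, while their shared protocol text describes only a Flag pull-down, and the study's methods describe both.

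The constructs in the names of the lists and those in the labels differed in 14 of 14 lists, and no value used here settles which is right. The TAZ4SA-named lists were labelled TAZ-CAMTA1 and the YAP5SA-named lists were labelled YAP-TFE3. The empty vector-named lists were labelled TAZ4SA, the CAMTA1-named lists were labelled empty vector, and the TFE3-named lists were labelled YAP5SA. The TAZ-CAMTA1-named lists were labelled CAMTA1 and the YAP-TFE3-named lists were labelled TFE3. Read by the labels, the same 720 regions were acetylated with the 2 fusion proteins, were without a peak with active TAZ, active YAP or the empty vector, and were read afterwards in the cells with full-length CAMTA1 or TFE3. The text below calls each list by its name, with the replicate number of its label, and does not mean by this that the name is right.

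TAZ and YAP are transcriptional coactivators and the end points of the Hippo pathway, a kinase cascade that senses cell density and tension. They do not bind DNA themselves and reach it mainly through the TEAD transcription factors, often at enhancers far from promoters. Acetylation of H3K27 is laid down by histone acetyltransferases at such enhancers when they are active, so a region that gains it is a candidate regulatory element. A list records only whether a peak was called, so a region without a peak may still carry some mark.

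Members were mostly held by 1 TAZ4SA-named list and both YAP5SA-named lists. TAZ4SA-named replicate 1, with 21748 peaks, held 226 of the 720 members. TAZ4SA-named replicate 2, with 48372 peaks, held 693. YAP5SA-named replicate 1, with 57505 peaks, held 713, and YAP5SA-named replicate 2, with 39653 peaks, held 676. All 4 lists held 148 members (20.6%) and exactly 3 lists held the other 572. Of the latter, 494 lacked TAZ4SA-named replicate 1, 44 lacked YAP5SA-named replicate 2, 27 lacked TAZ4SA-named replicate 2 and 7 lacked YAP5SA-named replicate 1. Both YAP5SA-named lists held 669 members (92.9%) and both TAZ4SA-named lists held 199 (27.6%). The shortest of the 4 lists was thus the one that most members were missing from. Without TAZ4SA-named replicate 1 the rule kept 646 regions, while without TAZ4SA-named replicate 2, YAP5SA-named replicate 1 or YAP5SA-named replicate 2 it kept 185, 165 or 193. All of the 3 remaining lists were required in each case, and in the last 3 these included TAZ4SA-named replicate 1, which 494 members lack. The 2 empty vector-named lists are the longest of the 14, with 102009 and 98992 peaks, and left out together, an alternative chosen after seeing the data, they gave 1836 regions.

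**Figure D1:**
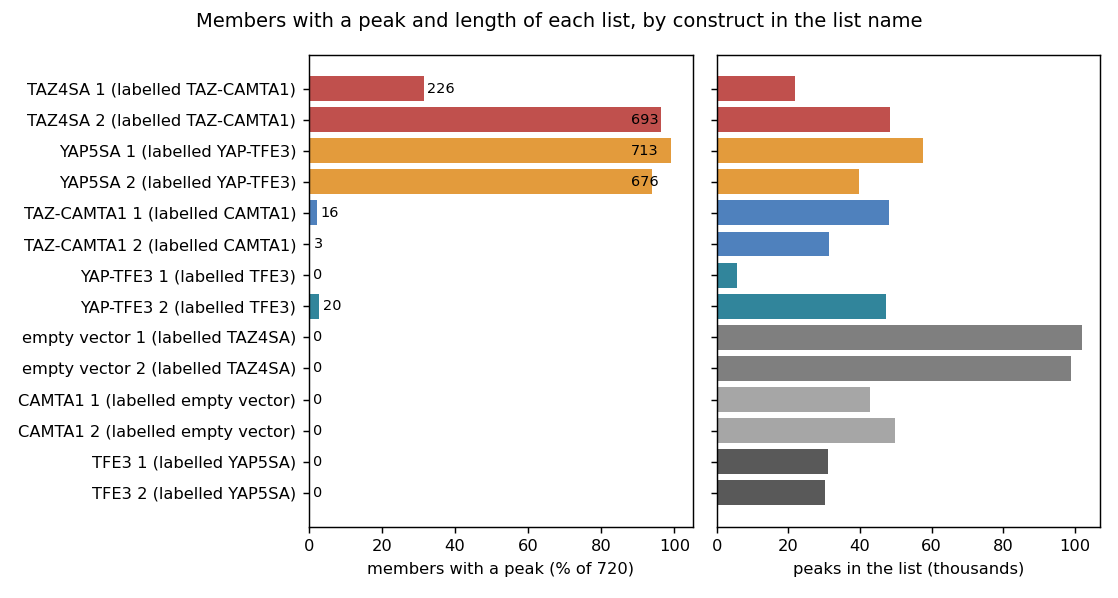
The left panel plots the percentage of the 720 members with a peak in each of the 14 lists, with their number beside the bar, and the right panel plots the number of peaks in that list, in units of 1000. The 4 TAZ4SA- and YAP5SA-named lists held 226 to 713 members, the 6 left-out lists held 0 by the rule, and the TAZ-CAMTA1- and YAP-TFE3-named lists held 0 to 20.

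The members were next read in the lists named for the fusion proteins, which the rule had not used. Of the 720 members, 685 (95.1%) had no peak in any of these 4 lists, and so had none in any of the 10 lists beyond those named TAZ4SA or YAP5SA. The other 4.86% had such a peak, against 27.6% of all merged regions. TAZ-CAMTA1-named replicate 1, with 47974 peaks, held 16 members (2.22%, 95% Wilson interval 1.37% to 3.58%). TAZ-CAMTA1-named replicate 2, with 31280 peaks, held 3 (0.417%, 0.142% to 1.22%). YAP-TFE3-named replicate 2, with 47308 peaks, held 20 (2.78%, 1.81% to 4.25%). These 3 lists held 21.3%, 13.6% and 20.8% of all merged regions. YAP-TFE3-named replicate 1 held 0 of 720 members, but that list had only 5721 peaks and held 3.19% of all merged regions. Its 0 allows a share of up to 0.417% by 3 counts of the total and up to 0.531% by the 95% Wilson interval. The intervals and this limit cover counting error only, and neighbouring members are not independent of each other.

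Either TAZ-CAMTA1-named list held 17 members (2.36%), against 22.7% of all merged regions. Either YAP-TFE3-named list held 20 (2.78%), against 20.8% of all merged regions. Of the 3 members in TAZ-CAMTA1-named replicate 2, 2 were also in replicate 1. Both lists thus held 0.278% of members, against 12.3% of all merged regions. The YAP-TFE3-named replicates could share none, since replicate 1 held 0 members. Only 2 of the 720 members had a peak under both fusion names, against 22041 of the 138757 merged regions. The shares rested on 1 library each: without TAZ-CAMTA1-named replicate 1 the first was 0.416%, and without YAP-TFE3-named replicate 2 the second was 0%. Leaving out CAMTA1-named replicate 2, or either empty vector-named list, moved the first to between 4.12% and 4.35%. Leaving out 1 empty vector-named list moved the second to 4.34% or 4.69%, YAP5SA-named replicate 1 to 5.45% and TAZ4SA-named replicate 2 to 4.32%, with the first then at 1.21% and 1.08%. Without YAP5SA-named replicate 2 the first was 1.55%, and leaving out both empty vector-named lists moved the shares to 16.0% and 15%. With every list cut to the length of the shortest, 5721 peaks, they were 6.43% and 10.4%. With at most 21748 peaks per list they were 9.07% and 5.52%, and with peaks over 50% of a region 0.931% and 0.532%. With peaks of a −log10 q of at least 5 the second was 0.977%, and with members of all 4 lists the shares were 1.35% and 4.73%. By the labels, the same figures describe full-length CAMTA1 and full-length TFE3. With 2 libraries against 2 the smallest exact two-sided permutation p is 0.333, so presence under the 2 fusion names was not compared by a test.

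Most regions shared by the TAZ4SA- and YAP5SA-named lists were not of this kind. At least 3 of these 4 lists held a peak in 21477 regions (15.5% of all merged regions), and 88.7% of those had a peak in a TAZ-CAMTA1- or YAP-TFE3-named list. The members' own share was 4.86% (35 of 720). The share rose with the number of left-out lists that held the region. With 1 left-out list it was 19.3% of 570 regions, with 2 it was 44.1% of 991, and with 3 it was 67.4% of 1199. With 4 it was 86.7% of 1765, with 5 it was 96.2% of 2051, and with all 6 it was 99.8% of 14181. Regions that were absent from the empty vector, CAMTA1 and TFE3 names were therefore mostly absent from the fusion names too, and the change between the extremes was gradual. Region width and peak strength differed along the same order. Median width was 1396 bp in members and 5282 bp with all 6, and median fold in YAP5SA-named replicate 1 was 4.78 and 8.83. Their part in the rising share was not tested.

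**Figure D2:**
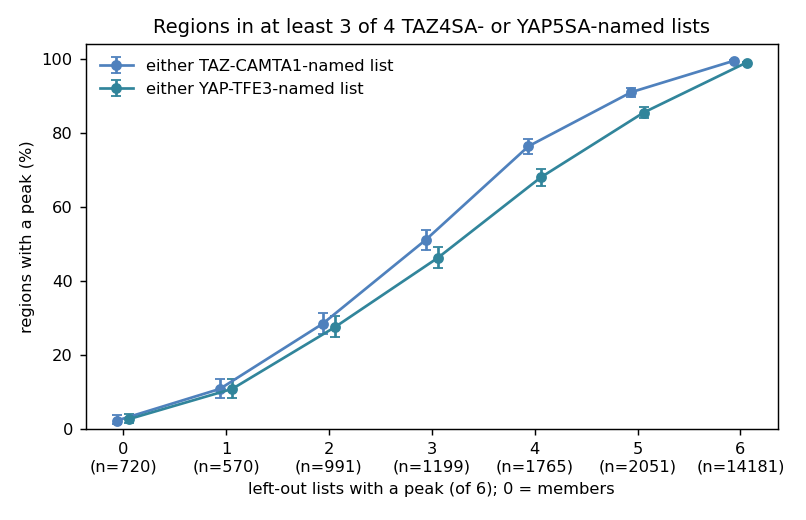
Points give the percentage of regions with a peak in either TAZ-CAMTA1-named or either YAP-TFE3-named list, for regions in at least 3 of the 4 TAZ4SA- or YAP5SA-named lists, by the number of the 6 left-out lists that also held the region. Bars are 95% Wilson intervals, n is the number of regions, and the members stand at 0 on the horizontal axis with 2.36% and 2.78%, below the 99.5% and 99.0% of regions held by all 6.

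Among regions absent from the 6 left-out lists, the share with a fusion-named peak was 3.10% to 6.08% by the number of the 4 lists that held them. It was 3.10% of the 11468 regions with 1 list, 4.86% of the 1604 with 2, 4.55% of the 572 members with 3 and 6.08% of the 148 members with 4. The 95% Wilson intervals were 2.80% to 3.44% with 1 list and 3.91% to 6.03% with 2. Those of the members were 3.12% to 6.58% with 3 lists and 3.23% to 11.2% with 4. They cover counting error only, and all regions come from the same libraries, so no order was drawn from them. Median width was 385, 773, 1226 and 2336 bp with 1, 2, 3 and 4 lists, and its part in the shares was not tested. A share below the 27.6% of all merged regions was thus also seen in regions outside the rule.

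The 35 members with a fusion-named peak mostly stood low in those lists. Their strongest peaks in TAZ-CAMTA1-named replicate 1 had a fold enrichment at the summit, the ratio of fragments to the local background, from 2.40 to 4.01 with a median of 3.26, against a median of 4.01 over that whole list. Those in YAP-TFE3-named replicate 2 ran from 2.46 to 6.89 with a median of 3.39, against 4.37 over the list. The 3 in TAZ-CAMTA1-named replicate 2 ran from 3.84 to 4.74, against a median of 4.65 over the list. By rank, 0 of 16, 1 of 3 and 2 of 20 of these peaks lay in the stronger part of TAZ-CAMTA1-named replicate 1, TAZ-CAMTA1-named replicate 2 and YAP-TFE3-named replicate 2, above the 50% mark, and the best of them stood at 24.0%. Of the 35 members, 9 had all 4 TAZ4SA- and YAP5SA-named lists and 26 had 3.

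The 2 members with a peak in both TAZ-CAMTA1-named lists were singled out after their values had been seen. The first lay on chromosome 14 from 25578799 to 25581262 of GRCh37/hg19. It had a fold of 4.0 in TAZ4SA-named replicate 2, 5.73 in YAP5SA-named replicate 1 and 4.88 in YAP5SA-named replicate 2. In the TAZ-CAMTA1-named replicates 1 and 2 its fold was 4.01 and 4.09, and in YAP-TFE3-named replicate 2 it was 3.05. It was the single member held by 3 of the 4 fusion-named lists. The second, 582 bp wide, had folds from 3.03 to 4.89 in the TAZ4SA- and YAP5SA-named lists and of 3.96 and 3.84 in the TAZ-CAMTA1-named replicates. Neither had a peak in TAZ4SA-named replicate 1.

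The ranks of member peaks differed between the 4 lists. Rank was taken by the −log10 p of each list and is given as a percentage of its length, with low values for strong peaks. In YAP5SA-named replicate 1 the median rank of the 713 member peaks was 37.9%, and 72.9% of them lay in the stronger part of the list above the 50% mark. The median rank was 54.6% in TAZ4SA-named replicate 2, 59.7% in YAP5SA-named replicate 2 and 68.9% in TAZ4SA-named replicate 1. Between 1 and 4 member peaks per list reached the top 10%. Few members were thus among the strongest acetylated sites of these libraries.

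**Figure D3:**
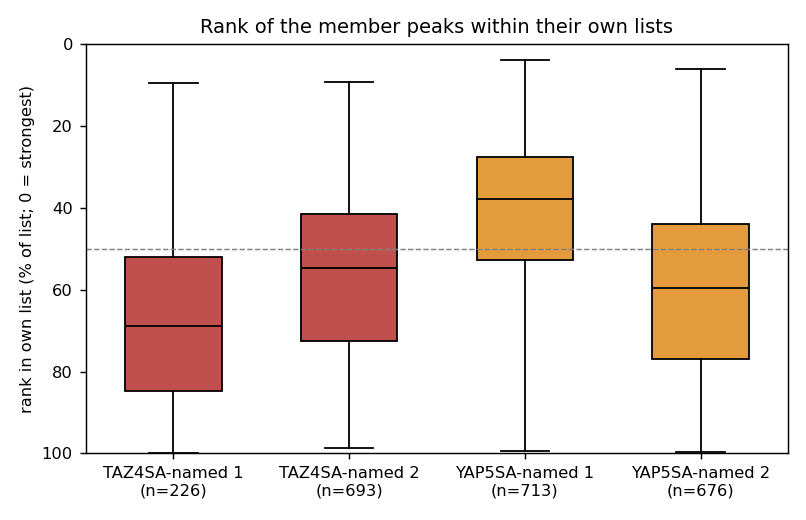
Boxes give the median and quartiles, and whiskers the full range, of the rank of each member's strongest peak in its own list, as a percentage of the list with the strongest peak at the top. The medians were 68.9%, 54.6%, 37.9% and 59.7% from left to right, and the dashed line marks 50%.

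In fold enrichment the member peaks ran from 2.27 to 9.59 in TAZ4SA-named replicate 1 (median 4.01), and from 2.38 to 13.9 in replicate 2 (median 4.43). In the YAP5SA-named lists they ran from 2.17 to 13.3 (median 4.78) and from 2.46 to 9.99 (median 4.21). The medians over the whole lists were 4.53, 4.80, 4.08 and 4.54 in the same order, so YAP5SA-named replicate 1 was the list in which members stood above its median. Behind the summits were a median of 13, 14, 20 and 14 fragments, as recovered from fold and p-value. The weakest 1% of peaks called in the 6 left-out lists had at most 6 to 11 fragments at the summit. These counts are not on a common scale between libraries, and whether a weak signal lay under the calling limit at the members in those lists was not tested.

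Members just inside the rule were narrower and weaker than those with all lists. The median width was 2336 bp with 4 lists and 1226 bp with 3, against 773 bp for the 1604 regions just outside with 2 lists. In YAP5SA-named replicate 1 the median fold was 5.93 with 4 lists, 4.66 with 3 and 3.73 just outside. In TAZ4SA-named replicate 2 it was 5.76, 4.32 and 3.79. The regions just outside on the other side, with 1 left-out list, had medians of 5.16 and 4.65 in these 2 lists and a width of 1713 bp, so they lay close to the members. Of those 570 regions, 162 and 187 had their left-out peak in empty vector-named replicates 1 and 2, 37 and 176 in the CAMTA1-named replicates, and 4 each in the TFE3-named replicates. Width and the number of lists are linked by construction, since a region merges all of its peaks, and no test was run on these values.

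Of the 1604 regions with 2 of the 4 lists, 863 joined TAZ4SA-named replicate 2 with YAP5SA-named replicate 1, the longest list of each name. Another 578 joined the 2 YAP5SA-named lists, and 22 joined the 2 TAZ4SA-named lists. Regions just outside the rule were thus more often shared across the 2 names than between the replicates of TAZ4SA. List length moved with this order, and its part in it was not tested.

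Over all members the width ran from 423 to 13497 bp with a median of 1396 bp. This median was 2249 bp with peaks stitched within 1000 bp, and 6056 bp with every list cut to 5721 peaks. The 542 regions found in both YAP5SA-named lists and nowhere else had a median width of 776 bp. The strongest summits of a member's 3 or 4 lists spread over a median of 370 bp, and in 445 members (61.8%) over at most 500 bp. The spread was 314 bp in members with 3 lists, of which 68.2% lay within 500 bp, and 676 bp in those with 4, of which 37.2% did. In regions held by all 6 left-out lists as well it was 307 bp, and 60.0% lay within 500 bp. The number of summits and the region width differ between these sets, so no order was drawn from the spreads.

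The rule bars members from any region with an empty vector-named peak, so some distance to such regions is set by the choice. The distance to the nearest region with a peak in both empty vector-named lists had a median of 32014 bp and quartiles of 10306 and 117859 bp. It was within 5 kb for 106 members (14.7%) and over 100 kb for 207 (28.7%). For the 148 members with all 4 lists the median was 54356 bp, and for the 572 with 3 lists it was 28698 bp. The regions just outside with 2 lists had a median of 16748 bp, and 32.4% of them lay within 5 kb. The YAP5SA-named regions found nowhere else had a median of 28593 bp. Without 1 of the empty vector-named lists, the distance was to regions of the other alone, and the members' median was 19728 or 17554 bp. It was 51166 bp without YAP5SA-named replicate 1, and 122746 bp with every list cut to 5721 peaks.

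**Figure D4:**
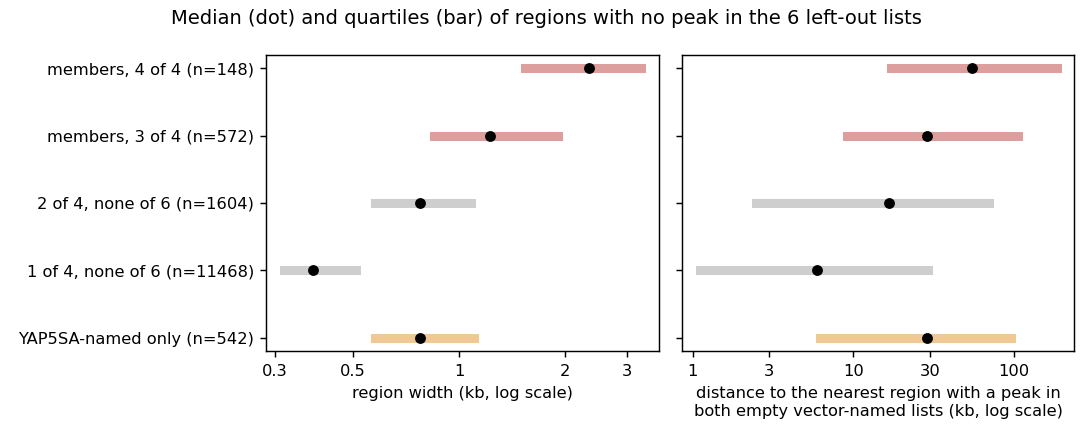
Dots give medians and bars the quartiles of region width (left, kb, log scale) and of the distance to the nearest region with a peak in both empty vector-named lists (right, kb, log scale), for regions with no peak in the 6 left-out lists. Width falls from 2336 bp in members with all 4 lists to 773 bp in regions with 2, and the distance falls from 54356 to 16748 bp.

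Members lay on 23 chromosomes, 1 to 22 and X. Chromosome 1 held 64, chromosome 5 held 61 and chromosome 2 held 59. As a share of the regions with at least 3 of the 4 lists, chromosome 18 was highest with 26 of 445 (5.84%), followed by chromosome 4 with 41 of 797 (5.14%) and chromosome 10 with 42 of 854 (4.92%). Chromosome 22 was lowest with 6 of 458 (1.31%), next to chromosome 19 with 12 of 907 (1.32%). The copy number of these chromosomes in the libraries was not measured here.

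Some members lay near each other. Joined at gaps of up to 100 kb, 192 members (26.7%) formed 82 clusters of 2 or more, and 528 stood alone. The median distance to the nearest other member was 689 kb, yet 173 members (24.0%) lay nearer to another member than to a region with a peak in both empty vector-named lists. There were 16 clusters of 3 or more and 2 of 7. Spacing was not counted for other regions, so whether members lie closer together than regions in general was not tested.

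The first cluster of 7 lay on chromosome 18 from 76572138 to 76639102. Its members were 2224 to 13497 bp wide and summed to 35.2 kb of 67.0 kb, and 6 of them had all 4 lists. TAZ4SA-named replicates 1 and 2 had 12 and 8 peaks there, covering 14.1 and 36.3 kb, with folds up to 9.59 and 13.9. YAP5SA-named replicates 1 and 2 had 11 and 17 peaks, covering 27.5 and 17.4 kb, with folds up to 12.8 and 8.76. The 10 other lists had 0 peaks in this stretch. For the 6 left-out lists this was set in part by the rule, which bars them from every member. Of the 4 lists with peaks, TAZ4SA-named replicate 2 thus had the fewest there and the most length covered.

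The second cluster of 7 lay on chromosome 5 from 167169708 to 167232160. Its members were 1220 to 3880 bp wide and summed to 16.2 kb, and 3 had all 4 lists. The TAZ4SA-named replicates had 8 peaks each, with folds up to 4.79 and 5.91, and the YAP5SA-named replicates had 19 and 9, with folds up to 8.15 and 4.99. The 10 other lists had 0 peaks there, which the rule again set in part for the 6 left-out lists. Of all stretches of 1 Mb that began at a member, the one beginning with this cluster held the most members, 13 up to position 168079509. A further cluster of 3 lay within it, from 167750182 to 167771508, with folds up to 12.3. Of the 71 merged regions in this 1 Mb, 17 had a peak in a left-out list.

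The first 10 members by rule were taken from the 141 that had all 4 lists and did not lie on chromosome 8, in the order of their weakest rank over those lists. Genes and sequences at these positions were not analysed here, since the reference used is GRCh38 and all positions are of GRCh37/hg19. Of the 10, 4 lay on chromosome 18, 2 on chromosome 7, and 1 each on chromosomes 2, 3, 5 and 10.

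The first region lay on chromosome 5 from 166633148 to 166637409, 83.5 kb from the nearest region with a peak in both empty vector-named lists. Its fold was 6.58 and 9.97 in TAZ4SA-named replicates 1 and 2, and 11.1 and 6.34 in YAP5SA-named replicates 1 and 2. The summits held 19, 27, 37 and 25 fragments in the same order, and its weakest rank was 29.8%. The ranges of the 2 names overlapped.

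The second lay on chromosome 3 from 99280111 to 99285200, at one end of a cluster of 4 members. Its fold was 5.69 and 13.8 in the TAZ4SA-named replicates and 12.6 and 4.97 in the YAP5SA-named replicates. The summits held 23, 38, 60 and 29 fragments. The replicates of each name lay further apart than the 2 names did.

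The next 2 and the ninth belonged to the cluster of 7 on chromosome 18. The third, from 76625606 to 76639102, was the widest of all members at 13497 bp and had folds of 6.55 and 8.50 in the TAZ4SA-named and of 12.8 and 5.87 in the YAP5SA-named replicates. The fourth, from 76572138 to 76577802, had folds of 5.82 and 13.9 and of 10.2 and 8.76. The ninth, from 76616082 to 76619244, had 9.59 and 13.5 and then 9.03 and 5.99. In the ninth both TAZ4SA-named values lay above both YAP5SA-named values, and in the other 2 the names overlapped.

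The fifth lay on the same chromosome from 39518753 to 39522092, 13.0 kb from a region with a peak in both empty vector-named lists. Its folds were 5.65 and 10.6 in the TAZ4SA-named and 12.2 and 9.02 in the YAP5SA-named replicates. Its summits lay within 386 bp of each other.

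The sixth, on chromosome 2 from 205202615 to 205206082, stood farthest from a region with a peak in both empty vector-named lists among the 10, at 522 kb. Its folds were even, at 7.07 and 6.46 in the TAZ4SA-named and 8.25 and 6.62 in the YAP5SA-named replicates. The seventh, on chromosome 7 from 23752270 to 23754664, had the most fragments at a summit of any member, 80 in YAP5SA-named replicate 1, with a fold of 13.3 there and of 6.68 in replicate 2. Its folds in the TAZ4SA-named replicates were 4.98 and 10, and its 4 summits lay within 73 bp.

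The eighth, on chromosome 10 from 105284961 to 105289094, was the single one of the 10 with a peak in a fusion-named list. Its folds were 6.43 and 6.65 in the TAZ4SA-named and 5.73 and 5.99 in the YAP5SA-named replicates, and 4.01 in TAZ-CAMTA1-named replicate 1. The summit of that last peak held 13 fragments, against 17 to 20 in the others. The tenth, on chromosome 7 from 140741900 to 140747295, had folds of 5.08 and 8.69 in the TAZ4SA-named replicates and of 4.20 and 4.72 in the YAP5SA-named replicates. Its 2 names did not overlap, as in the eighth and ninth. These folds stand relative to each list's own background and differ with its depth, so no order between the names was drawn from them.

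**Figure D5:**
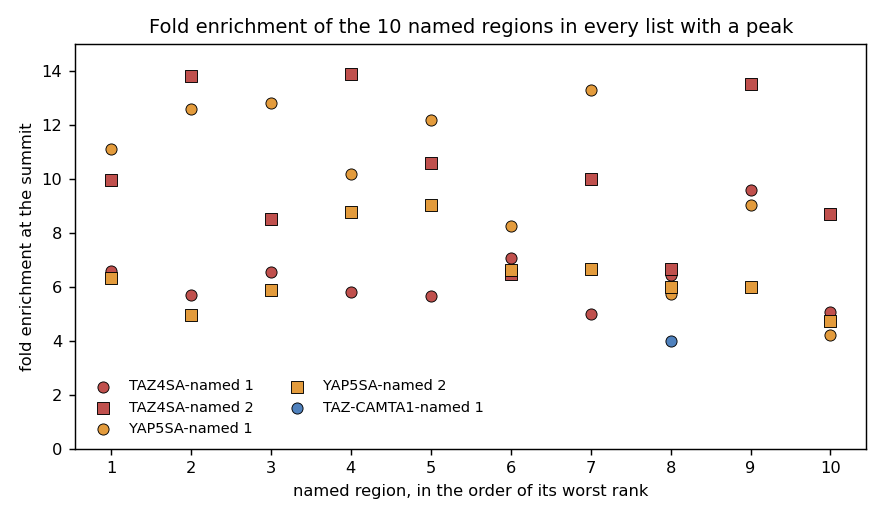
Each point is the fold enrichment at the summit of 1 of the 10 named regions in 1 list, with circles for replicate 1 and squares for replicate 2 of the label. Folds ran from 4.01 to 13.9, the 2 names mostly overlapped, and a fusion-named point appears for the eighth region alone.

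No member with all 4 lists had a peak in both TAZ-CAMTA1-named lists together with a YAP-TFE3-named peak, so no region was named under that part of the rule. The first 3 members without any fusion-named peak were the first 3 of these 10.

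Applied to the labels in place of the names, the rule gave 716 other regions. These had a peak in at least 3 of the 4 lists labelled TAZ4SA or YAP5SA and in none labelled empty vector, CAMTA1 or TFE3, and by construction 0 of them were members. All 4 lists held 45 of them and 3 lists held 671. Lists labelled TAZ4SA replicates 1 and 2 held 715 and 700, and those labelled YAP5SA held 530 and 248. The 2 lists labelled TAZ4SA are the longest of the 14, with 102009 and 98992 peaks, and the part of length in these counts was not tested. A peak in either list labelled TAZ-CAMTA1 was found in 108 (15.1%), against 24.1% of all merged regions. A peak in either labelled YAP-TFE3 was found in 152 (21.2%), against 30.7%, and 207 (28.9%) had a peak under either label, against 35.7%. By list these were 19 and 101 for the labels TAZ-CAMTA1 replicates 1 and 2, and 125 and 59 for YAP-TFE3. The shares by name, 2.36% and 2.78%, come from other lists with other shares of all merged regions, and no test was run on the difference between the namings.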

How the data were processed

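H3K27ac ChIP-seq peak lists of 14 libraries from SW872 cells were analysed, 2 for each of 7 labels. Input libraries, 14 in number, stayed out of the analysis. According to the methods, reads were trimmed with Atropos and mapped by BWA-MEM to GRCh37/hg19. Reads with several matches and regions of high input signal (a greylist) were dropped before MACS2 called the narrow peaks. The methods give a q limit of 0.1 and pooled replicates, but these lists are per library and hold no q above 0.05. The deposited values are a fold enrichment (ratio) at the summit, the p-value and q-value there on a −log10 scale, and a whole-number score that the authors' peak caller derives from the q-value. The score was not used.

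Peaks that overlapped or touched were merged over all lists, and presence meant any peak in the merged region. The strongest peak by −log10 p stood for a list within a region. Summit fragment counts were solved from fold and p, taking fold as count plus 1 over background plus 1, and lay within 0.05 of a whole number for 100.00% of peaks solved in every list. Read totals were not used, so depth is known from the list lengths and these counts only.

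The members and the lists of alternatives were chosen with earlier results of these data known. No test was run. Gene positions, sequences, motifs, markers and a check of the names at the transduced genes need a genome of the lists' build. The reference at hand is GRCh38, coordinates were not converted, and these were not analysed here. Named regions were, by rule, the first 10 members with all 4 lists, outside chromosome 8, by weakest rank, then the first 3 with both TAZ-CAMTA1-named and a YAP-TFE3-named peak and the first 3 with neither.

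The alternatives tried were stricter limits on q (0.01, or 5 on the −log10 scale), equal list lengths, chromosomes 1 to 22 and X, stitching within 1000 bp, merging the 4 lists alone, 50% coverage, all 4 lists, the labels, and each library left out. Python 3.11.15, numpy 2.4.6, pandas 2.3.3, scipy 1.17.1, statsmodels 0.14.6 and matplotlib 3.10.9 did the work. Tested on simulated data, the merged regions, presence and members matched those found by marking single bases in all of 20 genomes.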

Additional observations from a re-analysis of the deposited data

How the results depend on the processing

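No paired analysis was possible because none of these results comes from a test. The reported values were 720 members, 2.36% with a TAZ-CAMTA1-named and 2.78% with a YAP-TFE3-named peak, 0.278% in both TAZ-CAMTA1-named lists, a median width of 1396 bp, a median distance of 32014 bp from the nearest region with a peak in both empty vector-named lists, and a mean of 55.3% over the lists' median ranks. A q of at most 0.01, merging over the 4 lists alone, and chromosomes alone kept the number of members within 1.5 times and moved the other values by less than the spread between replicates of the reported value. With a −log10 q of at least 5, width and distance were 2419 and 42532 bp and the YAP-TFE3-named share was 0.977%. With every list cut to 5721 peaks there were 451 members, with shares of 6.43% and 10.4%, a width of 6056 bp and a distance of 122746 bp. With at most 21748 peaks per list the shares were 9.07% and 5.52%, and width and distance were 2734 and 46678 bp. Stitching within 1000 bp gave 2249 and 41258 bp. Requiring peaks over 50% of a region gave shares of 0.931% and 0.532%, a width of 2724 bp, a distance of 41322 bp and a rank of 35.7%. All 4 lists gave 148 members, shares of 1.35% and 4.73%, 2336 and 54356 bp. The spread of the YAP-TFE3-named share (SD 1.96 percentage points) is that between 0% in the list of 5721 peaks and 2.78% in the other. The constructs of the labels, which read other lists throughout, gave 15.1%, 21.2% and, in both lists, 1.68%. Their distance of 14213 bp is to regions of the lists labelled empty vector, not to those of the lists so named. The next 2 alternatives were chosen after seeing the data. Without both empty vector-named lists there were 1836 members, with 16.0% and 15%. Without the 2 shortest lists 646 members were left, and the other values moved by less than that spread.

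Leaving out 1 library at a time gave 165 to 916 members, shares of 0.416% to 4.35% and of 0% to 5.45%, 0% to 0.446% in both TAZ-CAMTA1-named lists, widths of 1392 to 2078 bp, distances of 17554 to 51166 bp and ranks of 47.9% to 55.5%. The counts of 165, 185 and 193 came where the shortest of the 4 lists, TAZ4SA-named replicate 1 with 226 members, became required. Without 1 of the empty vector-named lists, the distance was to regions of the other alone. The cause of the other moves was not tested. Variations of gene distance, motif window and exon overlap were not run, since they need a genome of the lists' build. Read totals were not used, so what depth limits was not tested.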
